A study of Mus musculus with 2 samples.

Results

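Collagen genes were compared between 2 cultures of mouse chondrocytes, the cells that make cartilage. The members were all rows of the deposited table whose symbol has the form Col, number, a, number, which gave 41 of 13138 genes. The rule used names only, so no measured value chose the members. Both libraries came from primary C57Bl/6 chondrocytes grown as micromass cultures, dense drops of cells that lay down a cartilage-like matrix. One culture was transduced with an adenovirus that carries Cre recombinase and has the genotype label hdac3-knockout. The other was transduced with a control adenovirus that carries GFP and has the genotype label wild-type. The labels do not state the targeted allele, the animals' age, the time after transduction or how many animals or dishes went into a library, so the knockout cannot be told apart from the presence of Cre itself. Hdac3 encodes a histone deacetylase. The series set out to find which genes are higher or lower without it, and the collagen genes are described here within that comparison.

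Collagens are the main structural proteins of cartilage. Their chains wind around each other in a helix that needs a glycine at regular steps, and each collagen type is built from a fixed set of chains. Fibrillar collagens form the load-bearing fibrils, and in cartilage these are made of type II with type XI inside the fibril and type IX on its surface. Type IX is a FACIT, a collagen with interrupted helices that attaches to fibrils. Network collagens form sheets, such as type IV in basement membranes and type X around enlarged (hypertrophic) chondrocytes. Beaded-filament (type VI) collagen surrounds the chondrocyte, transmembrane collagens sit in the cell membrane, and multiplexins lie in basement membrane zones. Types I and III are the fibrillar collagens of bone, tendon and loose connective tissue, and chondrocytes that lose their character in culture are known to make more of them.

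Each group held 1 library, so no difference below has a replicate check, a standard error or a p-value. Each one compares these 2 libraries and not the conditions. Levels are the authors' log2 normalized counts, and a difference is always the Cre-labelled library minus the GFP-labelled library, on that log2 scale. The table holds no read counts, so the depth is unknown, and its transform probably compresses differences at low read numbers. A minimum mean of 50 on the linear scale (5.64 on the log2 scale) left 12809 genes and 40 of the 41 collagen genes. Only Col17a1, with a mean of 5.45, fell under it. A gene was counted as higher or lower when it differed by at least 1.5-fold, which is 0.58 on the log2 scale. GENCODE release M21 lists 44 protein-coding mouse genes of this naming form, and Col13a1, Col26a1 and Col6a4 among them were not analysed here.

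The label check gave no sign of lost Hdac3 transcript. Hdac3 had a level of 10.68 in the Cre-labelled library and 10.69 in the GFP-labelled library. The value is a total over the gene, and transcripts that lack only some exons would still count. Of 9 measured chondrocyte markers, 8 lay below 0 in the difference, with a median of -0.66. Matn3 differed by -0.89 and the aggrecan gene Acan by -0.83. These 9 had a value well above the lowest in the table in both libraries, and Acan had 16.29 in the Cre-labelled library and 17.12 in the GFP-labelled library. The list includes Col2a1, a member of the family described here. Summed on the linear scale and with Col2a1 as the largest part, the markers stood at 1295310 and 1749570 in that order. For bulk RNA, fewer chondrocytes and less RNA per chondrocyte cannot be told apart.

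Collagen genes were on balance lower in the Cre-labelled library, by small amounts. Of the 40 genes past the minimum, 27 lay below 0 and 13 above, and the median difference was -0.16 against -0.00041 for all genes, of which 50.1% lay below 0. Past 1.5-fold, 1 gene was higher (Col5a3) and 3 were lower (Col10a1, Col6a6 and Col27a1), so 4 of 40 members were called. Over all 12809 genes the same rule called 3.20%, with 2.25% higher and 0.952% lower. No collagen gene reached 2-fold, which 0.804% of all genes did. The plot of differences against mean level shows where the members lay among all genes.

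**Figure D1:**
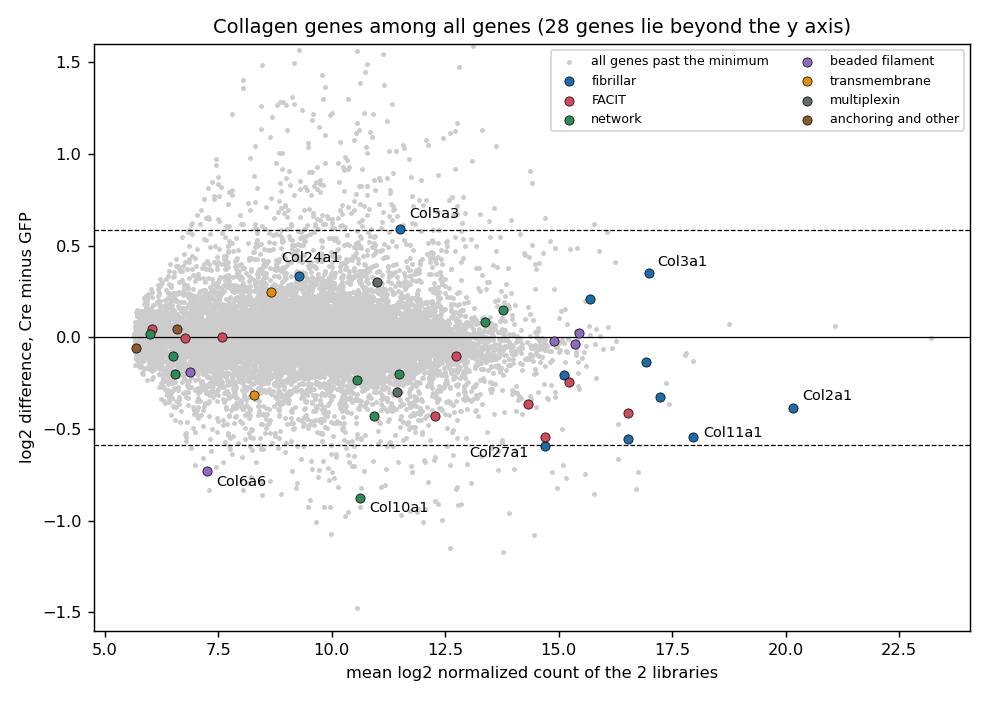
Difference (Cre minus GFP, log2) against mean log2 normalized count for genes past the minimum, 1 library per group. Grey points are all genes, coloured points are collagen genes by class, and dashed lines mark 1.5-fold. Col10a1, Col6a6 and Col27a1 lie below the lower line, Col5a3 lies just above the upper line, and 28 genes lie beyond the y axis.

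Abundance has to be read beside this balance. Many collagen genes have high values in the table, which also grow with transcript length: 13 of the 100 rows with the highest mean value were collagens. Here an abundant gene is one with a high value, not per length. Of the 520 genes whose mean level was at least 13, 66.7% lay below 0, and 13 of the 18 collagen genes in that range did (72.2%). Their median difference was -0.22, against -0.05 for the 520 genes. The rule of 1.5-fold called 9.04% of those 520 genes and 1 of the 18 collagens (5.56%). Below a mean of 13 it called 2.95% of 12289 genes and 3 of 22 collagens (13.6%). The share of abundant collagens called or below 0 was thus near that of the 520 abundant genes, which include them, while their median lay lower. The 3 calls at lower abundance are single genes.

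The genes past the line span a wide range of levels. To show the DNA in front of some genes on each side of 0, the 250 bases upstream of the RefSeq start are printed. They are given for Col5a3 and Col3a1, which were higher in the Cre-labelled library, and for Col11a2 and Col10a1, which were lower. The choice does not follow the order of the differences: Col6a6 and Col27a1, which lay past the line, are not shown. Sequences are from RefSeq on GRCm38.p6, 5′ to 3′ on the gene's strand. Capitals mark exact matches, on either strand, to the core promoter letters TATAAA, to the CCAAT box, to the GC box GGGCGG or to AACAAT, a core of SOX sites. The genes shown and the motifs were chosen with the values known.
Col5a3 promoter, chr9:20815068-20815317 (- strand): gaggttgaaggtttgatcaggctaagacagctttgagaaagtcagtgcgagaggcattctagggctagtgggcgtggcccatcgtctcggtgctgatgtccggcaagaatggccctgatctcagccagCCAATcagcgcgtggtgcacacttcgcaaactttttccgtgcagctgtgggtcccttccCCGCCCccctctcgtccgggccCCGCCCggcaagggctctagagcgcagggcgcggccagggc
Col3a1 promoter, chr1:45311288-45311537 (+ strand): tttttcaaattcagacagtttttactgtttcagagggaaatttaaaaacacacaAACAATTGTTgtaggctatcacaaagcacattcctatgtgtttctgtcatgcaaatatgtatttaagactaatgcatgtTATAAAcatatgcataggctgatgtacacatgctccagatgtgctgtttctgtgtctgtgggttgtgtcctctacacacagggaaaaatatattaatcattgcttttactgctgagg
Col11a2 promoter, chr17:34038888-34039137 (+ strand): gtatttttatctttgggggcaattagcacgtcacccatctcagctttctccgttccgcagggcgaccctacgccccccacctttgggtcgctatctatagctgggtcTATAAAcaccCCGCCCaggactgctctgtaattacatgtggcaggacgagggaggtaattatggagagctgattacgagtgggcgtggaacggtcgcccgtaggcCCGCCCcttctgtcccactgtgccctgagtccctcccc
Col10a1 promoter, chr10:34389731-34389980 (+ strand): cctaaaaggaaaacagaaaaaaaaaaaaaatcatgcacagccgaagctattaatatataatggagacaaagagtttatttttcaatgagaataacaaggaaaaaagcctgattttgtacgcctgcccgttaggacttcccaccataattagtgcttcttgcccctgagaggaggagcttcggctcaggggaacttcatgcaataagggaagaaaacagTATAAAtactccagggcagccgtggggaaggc

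The 4 stretches differ in make-up. G and C made up 62.8% of the Col5a3 stretch and 57.6% of that of Col11a2, but 41.6% for Col10a1 and 35.2% for Col3a1. Col10a1 has its TATAAA beginning at position -32, where a TATA box usually lies. In Col11a2 these letters begin at -143 and in Col3a1 at -117, farther out than that box usually lies. The Col3a1 stretch holds AACAAT and its reverse complement in an overlapping pair, at -196 and -192. The table of promoters held 36 windows for 33 of the 41 collagen genes, each from 250 bases before to 50 bases after the start. Of these windows, 22 held GGGCGG on either strand (61.1%, against 35.7% of all 32851 windows), 12 held CCAAT (33.3% against 37.4%), 4 held TATAAA (11.1% against 13.6%) and 1 held AACAAT (2.78% against 10.7%). The windows of collagen genes were also richer in G and C, with a median of 59.8% against 52.7%. These are counts of letters, not of sites in use.

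Fibrillar collagens went both ways. All 11 genes of the class were measured: 4 lay above 0 and 7 below, with a median of -0.21, 1 past 1.5-fold on each side. The chains of the cartilage fibril, types II and XI, were all lower in the Cre-labelled library. Col2a1 (chromosome 15, 97975602 to 98004695, minus strand) encodes the chain of type II collagen, which also serves as the third chain of type XI. Its level was 19.97 in the Cre-labelled library and 20.35 in the GFP-labelled library, a difference of -0.38. Col11a1 (chromosome 3, 114030540 to 114220718) had 17.68 and 18.23 in the same order, a difference of -0.55. Col11a2 (chromosome 17, 34039437 to 34066685) had 16.26 and 16.81, a difference of -0.56 that falls just short of 1.5-fold. These levels are not per length and do not give the order of the genes.

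Col27a1 encodes a fibrillar chain found in developing cartilage, and its gene (chromosome 4, 63214004 to 63334991) contains the microRNA gene Mir455. Its level was 14.41 in the Cre-labelled library and 15.01 in the GFP-labelled library. The difference of -0.59 passes 1.5-fold by a small margin. It was the only collagen gene with a mean of 13 or more to do so, and scaling both libraries to one total that leaves out Rn45s and Lars2 takes it under the line, to -0.58.

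Type I and type III chains did not move as one. Col1a1 had 16.86 in the Cre-labelled library and 16.99 in the GFP-labelled library, a difference of -0.14. For Col1a2 the levels were 17.06 and 17.39, a difference of -0.32. Col3a1 (chromosome 1, 45311538 to 45349706), the chain of type III collagen, was instead higher in the Cre-labelled library, at 17.16 against 16.81, a difference of 0.35. So the connective-tissue chains lay on both sides of 0, with type I on the side of type II.

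The type V chains split in the same way. Type V collagen sits inside type I fibrils and limits their width. Col5a1 had 15.01 in the Cre-labelled library and 15.22 in the GFP-labelled library, a difference of -0.21, whereas Col5a2 had 15.81 and 15.60, a difference of 0.21. Col5a3 (chromosome 9, 20770050 to 20815067, minus strand) encodes the chain of type V with the lowest level per length and had 11.81 against 11.22, a difference of 0.59 and 1.51-fold. That margin over 1.5-fold is thin, and scaling both libraries to equal totals without collagens, Rn45s and Lars2 takes the gene under it. Col24a1, a minor fibrillar chain known from developing bone, had 9.45 and 9.11, a difference of 0.33.

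**Figure D2:**
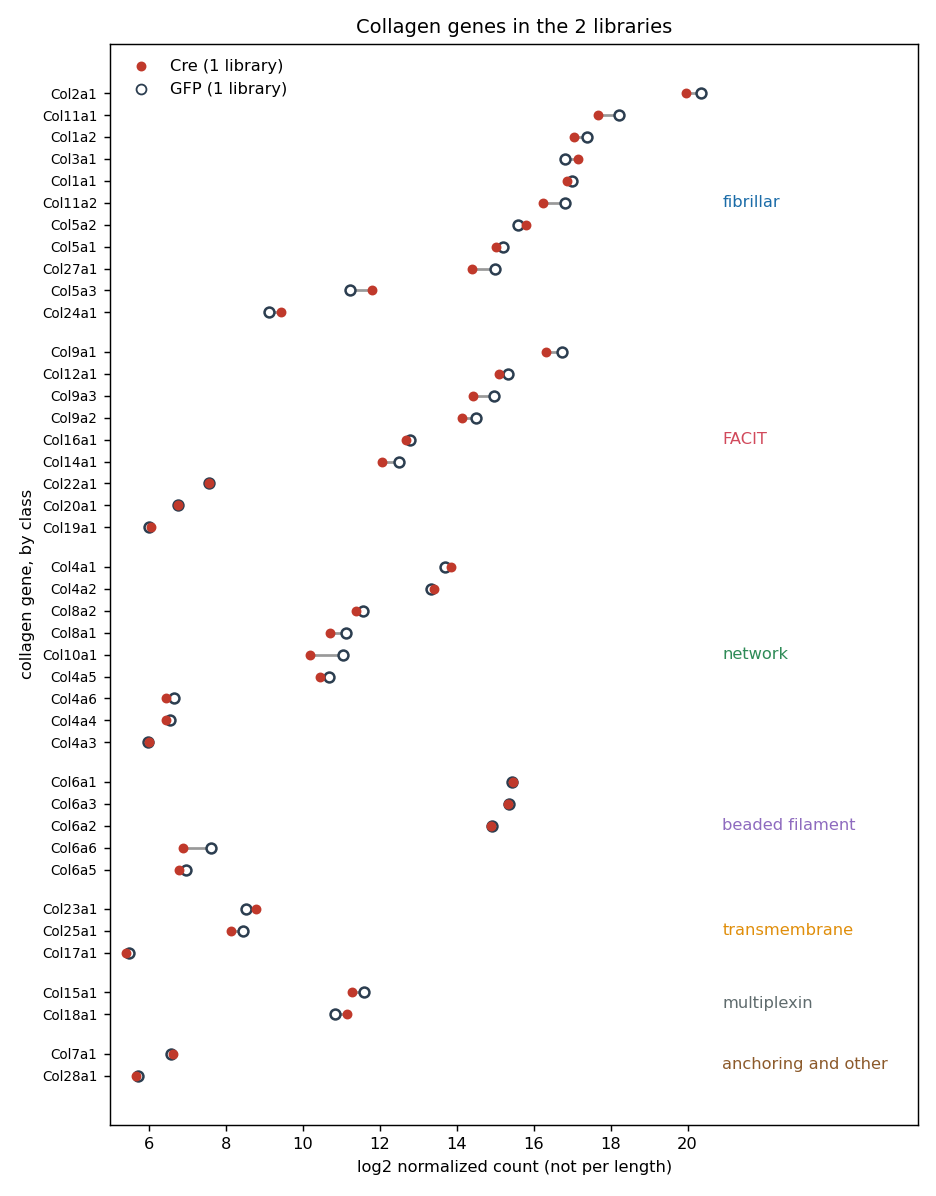
Log2 normalized count (x axis, not per length) of each of the 41 collagen genes in the Cre-labelled library (filled) and the GFP-labelled library (open), grouped by class on the y axis, with 1 library per group. Lines join the values of a gene. Open points lie to the right of filled ones for Col2a1, for both Col11 chains and for all Col9 chains, and to the left for Col3a1, Col5a2, Col5a3 and Col24a1.

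FACIT genes were lower or level in the Cre-labelled library. Of 9 measured genes, 7 lay below 0 and 2 above, with a median of -0.24 and 0 past 1.5-fold. The type IX chains, which cover the surface of type II fibrils, were all lower. Col9a1 had 16.33 in the Cre-labelled library and 16.74 in the GFP-labelled library, a difference of -0.42. Col9a2 had 14.15 and 14.51, a difference of -0.36, and Col9a3 had 14.43 and 14.98, a difference of -0.54. In all 3 the GFP-labelled library was higher. Col9a3 overlaps Tcfl5 on the opposite strand, and reads of overlapping genes cannot be told apart without strand.

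Types XII and XIV are FACITs of type I fibrils in tendon, skin and perichondrium. Col12a1 had 15.10 in the Cre-labelled library and 15.35 in the GFP-labelled library, a difference of -0.24. Col14a1 had 12.07 and 12.50, a difference of -0.43. Col16a1, whose product is found at fibrils and filaments in several tissues, had 12.70 and 12.80, a difference of -0.10. The scarce members Col19a1, Col20a1 and Col22a1 had means from 6.04 to 7.58 and differed by 0.05, -0.00079 and 0.0024. The 6 FACIT genes with a mean of 12.28 or more were thus all lower in the Cre-labelled library, and the 3 scarce ones differed by at most 0.05. Large differences were rare at such low levels. Past the minimum but under a mean of 7, where Col19a1 and Col20a1 lie, 0.298% of genes passed 1.5-fold, against 9.04% at 13 or more.

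Network collagens included the gene with the largest difference in the family. Col10a1 (chromosome 10, 34389981 to 34397085) encodes type X collagen, which marks hypertrophic chondrocytes. Its level was 10.19 in the Cre-labelled library and 11.06 in the GFP-labelled library, a difference of -0.87 or 1.83-fold. The gene lies within Nt5dc1 on the opposite strand, and whether counting used strand is not stated in the sources used here. Nt5dc1, named for this overlap, had 8.89 and 8.99, a difference of -0.10. The type VIII chains form the other hexagonal lattice and were also lower: Col8a1 had 10.71 and 11.14, a difference of -0.43, and Col8a2 had 11.38 and 11.57, a difference of -0.20.

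Basement membrane chains lay on both sides of 0. Col4a1 had 13.84 in the Cre-labelled library and 13.70 in the GFP-labelled library, a difference of 0.15. Col4a2, its partner in the common type IV molecule, had 13.41 and 13.33, a difference of 0.08. Col4a5 had 10.45 and 10.68, a difference of -0.23, and the scarce Col4a6 had 6.45 and 6.65, a difference of -0.20. Col4a3 and Col4a4, known from kidney and lung basement membranes, had means of 6.00 and 6.50 and differed by 0.02 and -0.10. Over the 9 network genes, 3 lay above 0 and 6 below, with a median of -0.20, and 1 was past 1.5-fold. Endothelial markers, which would accompany vessels and their basement membranes, comprised 6 genes past the minimum with a median of 0.07. Over all 7 measured endothelial markers, which adds Emcn, the summed linear level was 859 in the Cre-labelled library against 814 in the GFP-labelled library. The part of endothelial cells in the type IV levels was not tested.

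Type VI chains gave the most level abundant molecule. Col6a1 had 15.47 in the Cre-labelled library and 15.44 in the GFP-labelled library, a difference of 0.02. Col6a2 had 14.89 and 14.91, a difference of -0.02, and Col6a3 had 15.33 and 15.37, a difference of -0.04. The alternative chains of type VI were scarce. Col6a5 had 6.79 and 6.98, a difference of -0.19. Col6a6 (chromosome 9, 105687809 to 105828160, minus strand) had 6.90 in the Cre-labelled library and 7.63 in the GFP-labelled library, a difference of -0.73 or 1.66-fold. Of these 5 genes, 4 lay below 0 and the median was -0.04.

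The remaining classes were mixed in direction. Among transmembrane collagens, Col23a1 had 8.78 in the Cre-labelled library and 8.54 in the GFP-labelled library, a difference of 0.25, and Col25a1 had 8.13 and 8.45, a difference of -0.32. Col17a1, a collagen of the junction between epidermis and dermis, had 5.41 and 5.49. The multiplexins, whose C-terminal pieces are known as endostatin and an endostatin-like fragment, also parted: Col18a1 had 11.15 and 10.85, a difference of 0.30, and Col15a1 had 11.29 and 11.58, a difference of -0.30. Col7a1, the anchoring fibril chain of skin, and Col28a1 had means of 6.60 and 5.70 and differed by 0.05 and -0.06. Neither the transmembrane nor the multiplexin class had a direction of its own, with 1 gene on each side of 0 past the minimum. Col18a1 overlaps Slc19a1 on the opposite strand.

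Levels can be set against each other only per length. For this, the log2 length in kilobases of all annotated exons of a gene was subtracted from its level. On that scale Col2a1 came first in both libraries, at 16.76 in the Cre-labelled library and 17.14 in the GFP-labelled library. Next in the GFP-labelled library came Col11a1 (14.56), Col9a1 (14.40), Col1a1 (14.28) and Col11a2 (14.03). In the Cre-labelled library the order was Col1a1 (14.14), Col11a1 (14.01), Col9a1 (13.98), Col3a1 (13.86) and then Col11a2 (13.48). Col1a1 thus stood at place 2 in the Cre-labelled library and at place 4 in the GFP-labelled library, and Col3a1 at places 5 and 7. With the longest transcript as length, Col1a1 stood at places 6 and 5, so the direction of its shift turned, while Col3a1 stood at places 3 and 6. With no replicate spread, no pair of neighbours in these orders can be said to differ.

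As a share of the summed per-length collagen level, Col2a1 held 44.3% in the Cre-labelled library and 46.8% in the GFP-labelled library. Types II, IX and XI together held 66.6% and 72.1%, and types I and III together 17.6% and 14.7%. Col3a1 alone held 5.96% in the Cre-labelled library and 3.78% in the GFP-labelled library. The per-length ratio of Col2a1 to Col3a1 was 7.44 in the Cre-labelled library and 12.4 in the GFP-labelled library, and that of Col2a1 to Col1a1 was 6.13 and 7.28. Relative to all other collagens, then, type III took a larger share in the Cre-labelled library. Fibroblast and perichondrium markers, which would go with connective-tissue cells, had a median difference of -0.0027 over 11 genes, with 5 above 0. Their summed linear levels were 507448 in the Cre-labelled library and 486622 in the GFP-labelled library. Most of each sum came from Fn1, named after its value was seen, at 18.79 and 18.71 in that order. The sums therefore mainly follow Fn1 and do not speak for the rest of the list. Pdgfra differed by 0.43 and Acta2 by -0.68. The part of such cells in the shares was not tested.

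**Figure D3:**
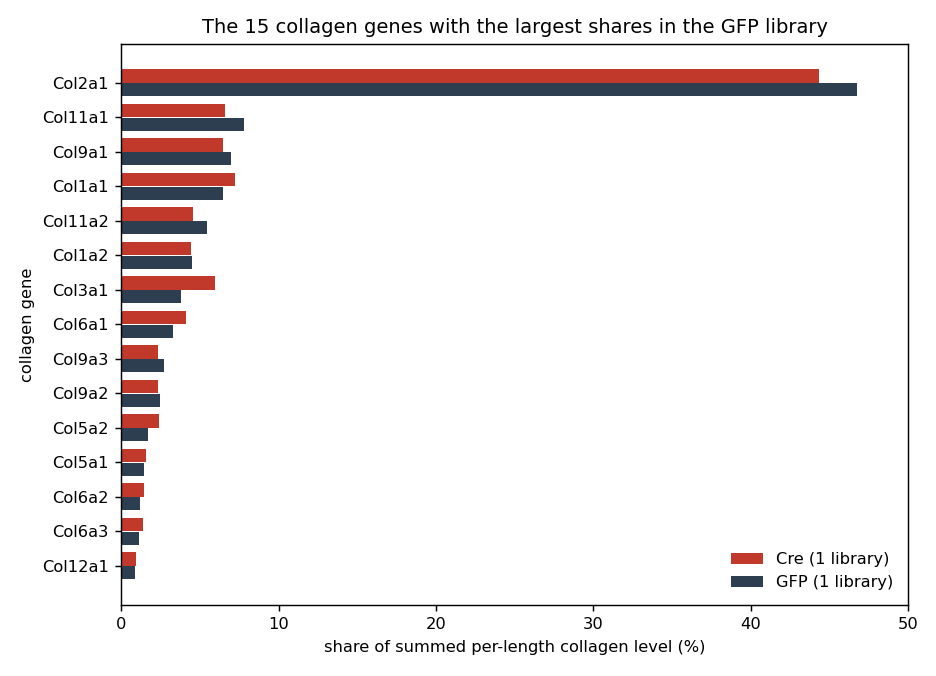
Share of the summed per-length collagen level (x axis, percent) for the 15 collagen genes with the largest shares in the GFP-labelled library, with 1 bar per library and no error bars because each group has 1 library. Col2a1 holds 44.3% and 46.8%, and the Cre-labelled bar is the longer one for Col1a1, Col3a1 and Col6a1, among others.

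Taken as a whole, collagen genes held 5.15% of the summed linear values of the Cre-labelled library and 6.35% of those of the GFP-labelled library, a ratio of 0.810. The precursor ribosomal RNA row Rn45s held 22.9% and 22.8% of these sums. Without it and Lars2, collagens held 7.18% and 8.81%, a ratio of 0.814. Without Col2a1, the other 40 genes held 2.70% and 3.18%, a ratio of 0.850. The lower collagen share thus did not rest on Col2a1 alone.

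Chains that assemble into one molecule are described side by side. The differences of the type VI chains lay within 0.06 of each other, those of Col4a1 and Col4a2 also within 0.06, those of types IX and XI (with Col2a1) within 0.18 and 0.17, and those of type I within 0.19. Type VIII spanned 0.23. Type V spanned 0.80, the widest of the 7 molecules compared. Per length, Col5a1 stood 12.8 times as high as Col5a3 in the GFP-labelled library and 7.39 times in the Cre-labelled library. Col11a1 stood 1.45 and 1.44 times as high as Col11a2, in the Cre- and GFP-labelled libraries. For Col9a1 over Col9a2, this ratio was 2.76 and 2.87. For type I, which is built with more Col1a1 than Col1a2 chains, the ratio of Col1a1 to Col1a2 was 1.64 and 1.44, but 0.781 and 0.687 when the longest transcript was taken as the length. Which type I chain is higher therefore cannot be read from these values.

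Position on the chromosomes was compared as a property that the rule did not use. The annotation holds 10 pairs of collagen genes within 500 kb of each other, and both members of a pair lay on the same side of 0 in 6 of them. With 27 of the 40 genes past the minimum below 0, unrelated pairs would often share a side too. Some pairs also share genes, as among Col6a1, Col6a2 and Col18a1. One of the 6, Col9a3 with Col20a1, depends on scaling: Col20a1 differed by -0.00079, and by 0.0069 at equal totals. Type IV genes form pairs that lie head to head. Col4a1 and Col4a2 overlap by 22 bases at their starts on chromosome 8, and differed by 0.15 and 0.08. Col4a4 and Col4a3 start 71 bases apart on chromosome 1, and differed by -0.10 and 0.02. Col4a6 and Col4a5 lie 1.31 kb apart on chromosome X, and differed by -0.20 and -0.23. Col3a1 and Col5a2, whose products meet in the same fibrils, lie tail to tail 24.6 kb apart on chromosome 1 with no annotated gene between them. Among fibrillar chains with a mean of 13 or more, these were the ones that were higher in the Cre-labelled library. Col9a1 and Col19a1 lie 9.21 kb apart, tail to tail, and differed by -0.42 and 0.05.

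Genes that act on collagen are given as 9 lists, beside the 3.20% of all genes past 1.5-fold and the 50.1% below 0. Among genes with a mean of 13 or more, as some list members have, these shares were 9.04% and 66.7%. Among enzymes of prolyl hydroxylation, which stabilises the helix, 3 of 10 lay above 0, with a median of -0.12 and 1 past 1.5-fold (P4ha2, at 13.94 in the Cre-labelled library and 13.23 in the GFP-labelled library). Leprel1, a prolyl 3-hydroxylase gene, differed by -0.54. Of 5 genes of lysyl hydroxylation and glycosylation, 3 lay above 0, with a median of 0.04 and 1 past 1.5-fold (Glt25d2). Glt25d2, which adds galactose to hydroxylysine, differed by -0.65 and Plod1 by 0.30. Folding and export genes lay below 0 in 8 of 9 cases, with a median of -0.17 and 0 past 1.5-fold. Serpinh1, the collagen chaperone HSP47, had 16.08 and 16.55, a difference of -0.47, and the ion channel gene Tmem38b was the exception at 0.51.

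Among 7 genes of propeptide removal, which trims procollagen outside the cell, 4 lay below 0 and the median was -0.07. Pcolce2, an enhancer of that trimming, had 11.41 in the Cre-labelled library and 12.37 in the GFP-labelled library, a difference of -0.95, and was the 1 gene past 1.5-fold. Adamts14 differed by -0.20. The 5 lysyl oxidase genes of crosslinking had a median of 0.01 and 0 past 1.5-fold, with Lox at 0.48 and Loxl2 at 0.20. Collagen receptors lay below 0 in 8 of 9 cases, with a median of -0.12 and 0 past 1.5-fold, and the integrin genes Itga10 and Itga1 differed by -0.36 and -0.34. Of 15 genes for fibril-binding proteins, 9 lay below 0, 4 were lower past 1.5-fold and 1 higher, with a median of -0.08. Ogn differed by -1.08, and Omd had 11.94 in the Cre-labelled library and 12.93 in the GFP-labelled library. These 2 small proteoglycan genes were the farthest from 0 in that list, but small proteoglycan genes did not move as one. Named after their values were seen, Lum (the gene counted as higher) differed by 0.65, Dcn by 0.47, Prelp by 0.44 and Bgn by 0.04. Fmod differed by -0.50 and Kera by -0.18.

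Genes of collagen breakdown were the one list wholly on the other side. All 5 measured genes lay above 0, with a median of 0.47. Past 1.5-fold there were 2, both also past 2-fold, which 0.804% of all genes reached. Mmp13, the main cartilage collagenase, had 16.24 in the Cre-labelled library and 14.41 in the GFP-labelled library, a 3.57-fold difference. Mmp9, which digests denatured collagen, had 11.32 and 10.10, a 2.33-fold difference. Macrophages also express Mmp9. Of 9 macrophage markers, 7 lay above 0, with a median of 0.58 and summed linear levels of 47277 in the Cre-labelled library and 29160 in the GFP-labelled library, none of them at 0. Emr1 differed by 1.08 and Cd14 by 1.04, but Mrc1, named after its value was seen, was lower past 1.5-fold at -0.73. Lyz2, Csf1r and Cd68 are also named after their values were seen. Most of each sum came from Lyz2, at 14.82 and 13.98 in that order, so the sums mainly follow that gene. Csf1r differed by 0.08 and Cd68 by -0.05. The part of macrophages in the Mmp9 level was not tested.

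Transcription factors that act on collagen genes lay below 0 in 7 of 8 cases, with a median of -0.30 and 0 past 1.5-fold. Sp7 had 7.63 in the Cre-labelled library and 8.09 in the GFP-labelled library, and Mef2c, a regulator of hypertrophy and of Col10a1, had 9.96 and 10.42. Both differed by -0.47. The plot of lists shows these medians beside the spread of the collagen genes.

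**Figure D4:**
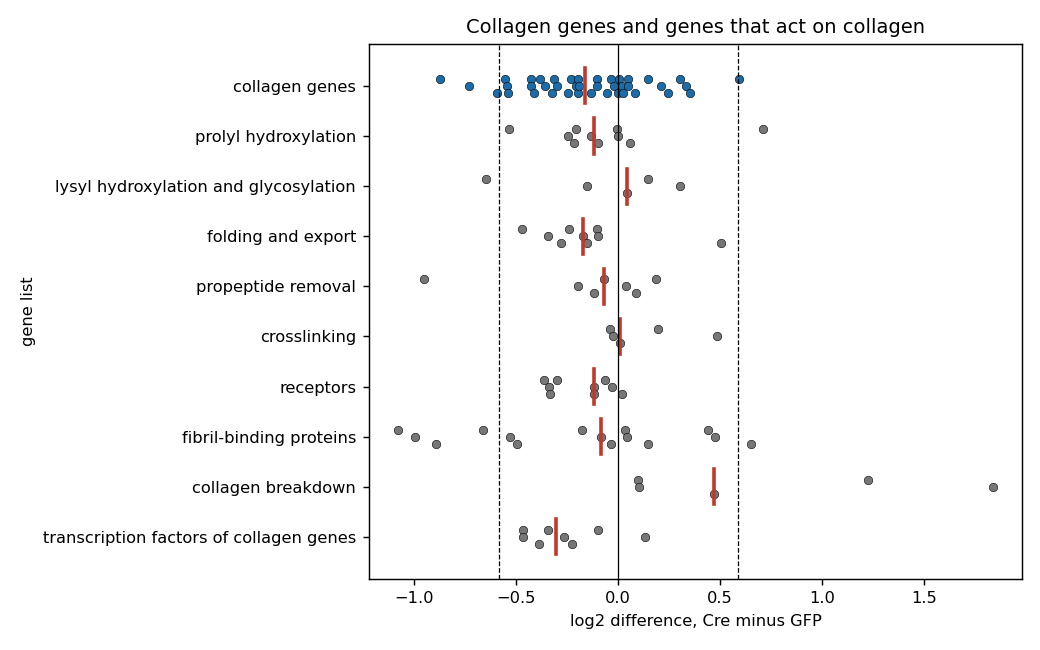
Difference (Cre minus GFP, log2, x axis) of each measured gene past the minimum, for the collagen genes and for 9 lists of genes that act on collagen (y axis), with 1 library per group. Red bars are medians and dashed lines mark 1.5-fold. The median is -0.16 for collagen genes, -0.30 for transcription factors and 0.47 for collagen breakdown.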

How the data were processed

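RNA sequencing of 1 library per group was analysed. Per the labels' protocols, TRIzol was used for RNA extraction and Illumina TruSeq v2 mRNA for library preparation. Per the submitters' processing notes, bcl2fastq 1.8.4, TopHat2 2.0.6, HTSeq and the build mm10 were used. The annotation, the strand setting and the transform were not given in those sources. The deposited values are log2 normalized counts per gene, 1 column per library, with the authors' own mean and difference columns. The heading rLogFC points to a regularized log, in which differences at low read numbers are compressed. The deposited difference is GFP minus Cre and was turned round here.

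Linear values are powers of 2 of the deposited log2 values. Classes, lists, the 1.5-fold threshold and the minimum mean of 50 were chosen with earlier results of these data known. All collagen genes were named, and of each list the 2 genes farthest from 0. Some further genes were named for a reason given with them or after their values were seen. No test across libraries was possible, so the planned design gives values, counts and medians. Lengths and coordinates came from GENCODE M21 on GRCm38 (the assembly called mm10), matched by symbol and chromosome for all 41 genes. Counting of genes and medians was tested on simulated data. Python 3.11.15, pandas 2.3.3 and numpy 2.4.6 were used. Alternatives were other thresholds, minimums, scalings, lengths and class limits.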

Additional observations from a re-analysis of the deposited data

How the results depend on the processing

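Scaling to a median difference of 0, to equal totals, to equal totals without Rn45s and Lars2, and to equal totals without these and the collagen genes added 0.00041, 0.0077, 0.015 and -0.011 to every difference. Under these scalings all 164 alternative differences of single collagen genes stayed within 0.1, the tolerance used because no replicate spread exists, and the sign turned only for Col20a1 and Col22a1, both close to 0. The count of higher genes went from 1 to 0 (Col5a3) under the last of these scalings. The count of lower genes went from 3 to 2 under equal totals without Rn45s and Lars2 (Col27a1) and at a minimum mean of 500 (Col6a6). At 2-fold, 0 collagen genes were higher and 0 lower.

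Of 103 alternative medians, 95 stayed within 0.1. The FACIT median moved from -0.24 to -0.39, both with a minimum of 500 and with Col9, Col12, Col14 and Col20 genes only, each of which left 6 genes. The network median was -0.43 without the Col4 genes. With means in place of medians, the beaded-filament value was -0.19, lysyl hydroxylation and glycosylation -0.063, crosslinking 0.13, fibril-binding proteins -0.21 and collagen breakdown 0.75. Lysyl hydroxylation and glycosylation thus changed sign. The collagen share was 7.18% (Cre-labelled library) and 8.81% (GFP-labelled library) without Rn45s and Lars2 in the total, and 2.70% and 3.18% without Col2a1.

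With the longest transcript as length, the gap between the highest and the lowest chain moved, in the Cre- and GFP-labelled libraries, to 0.39 and 0.33 for type IV, 3.88 and 4.26 for type V, 1.43 and 1.37 for type VI, 0.90 and 0.67 for type VIII, 1.79 and 1.84 for type IX, and 3.95 and 3.78 for type XI. For type I it was 0.36 in the Cre-labelled library. Places in the per-length order changed for 18 genes in the Cre-labelled library and 16 in the GFP-labelled library, by at most 4 and 3 places. Col1a1 went from places 2 and 4 to places 6 and 5. Col2a1 then held 50.6% and 53.1% of the collagen level, and types I and III 18.1% and 15.1%. Replicates could not be left out. No paired analysis was possible because there is a single library on each side.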

Other observations

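Further marker lists lay beside the collagen values. All 7 osteoblast markers lay below 0, with a median of -0.19 and 0 past 1.5-fold. Sp7 differed by -0.47 and the bone matrix gene Ibsp by -0.30. Summed on the linear scale and mostly from Ibsp, this list stood at 3853 in the Cre-labelled library and 4639 in the GFP-labelled library. Markers of synovium and the articular surface lay above 0 in 5 of 6 cases, with a median of 0.42. Clu differed by 0.77 and Gdf5, a joint-forming growth factor gene, by 0.61. Skeletal muscle markers lay above 0 in 4 of 5 cases, with a median of 0.31, led by Ttn at 0.67 and Myh3 at 0.35. Among endothelial markers, Pecam1 differed by 0.23 and Egfl7 by 0.14. The part of these cell types in the collagen differences was not tested.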
